A study of Homo sapiens with 36 samples.

Results

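Levels of 7 miRNAs from the imprinted DLK1-DIO3 cluster on chromosome 14 (band 14q32) were examined: hsa-miR-493-5p, hsa-miR-127-5p, hsa-miR-379-5p, hsa-miR-411-5p, hsa-miR-382-5p, hsa-miR-409-5p and hsa-miR-369-5p. They were chosen by name, with earlier results of these data known. Values of the members set beside those of all names are therefore a description only. The members make up 7 of the 509 mature miRNA names that the small RNA sequencing tables list. They are also 7 of the 29 listed names whose genes lie between DLK1 and DIO3. The data came from cultured cells of 2 origins. HCT116 is a near-diploid colorectal carcinoma line with a modal number of 45 chromosomes, and RPE1 cells are hTERT-immortalised cells of the retinal pigment epithelium with a modal number of 46.

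The study asked how gained chromosomes change miRNAs, and compared 7 aneuploid derivatives with 5 groups of parental libraries, with 3 libraries in each of the 12 groups and 36 in all. A name such as 5/4 stands for 4 copies of chromosome 5, c marks a clone grown from a single cell, and an asterisk marks stable expression of the histone fusion H2B-GFP. HCT116 5/4 was set against HCT116. HCT116* 3/3 c11 and HCT116* 8/3 c7 were set against HCT116*, and so was HCT116 18/3 c2, which does not carry H2B-GFP itself. RPE1 5/3 12/3 was set against RPE1, and RPE1* 21/3 and RPE1* 7/3 each against a separate set of RPE1* libraries. The study's methods list chromosome 12 of RPE1 5/3 12/3, and chromosomes 9 and 12 of RPE1* 7/3, as spontaneous gains. No line is labelled as having gained chromosome 14. Each aneuploid group is 1 derivative line, so a gained chromosome and other features of that line cannot be told apart.

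In an imprinted cluster, each gene is expressed mainly from the copy inherited from one parent. The protein-coding genes DLK1, RTL1 and DIO3 are read mainly from the paternal copy, whereas the long non-coding RNAs MEG3, MEG8 and MEG9 and the many miRNAs among them are read from the maternal copy, under the control of a methylated region between the genes. The miRNAs are best known from embryo, placenta and brain. A miRNA pairs with its target mRNAs mainly through the seed, bases 2 to 8 from its 5′ end, and miRNAs with the same seed can share targets.

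All 7 mature sequences were found in RefSeq (GRCh38.p14). They are shown 5′ to 3′ with the seed in capitals, in their order along the chromosome, because the members share a locus but not a seed.
hsa-miR-493-5p: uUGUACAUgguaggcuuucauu
hsa-miR-127-5p: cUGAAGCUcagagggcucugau
hsa-miR-379-5p: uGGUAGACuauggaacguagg
hsa-miR-411-5p: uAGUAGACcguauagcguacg
hsa-miR-382-5p: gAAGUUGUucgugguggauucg
hsa-miR-409-5p: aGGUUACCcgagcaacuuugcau
hsa-miR-369-5p: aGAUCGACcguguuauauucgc

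The 7 seeds were all different. The closest pair was hsa-miR-379-5p and hsa-miR-411-5p, which were identical at 14 of 21 positions (66.7%). Counted from the 5′ end with the base of hsa-miR-379-5p first, they differed by G2A, U9C, A10G, G12A, G13U, A15G and G20C, so that 1 seed base separated them. The pair least alike by position was hsa-miR-382-5p and hsa-miR-369-5p, with 2 of 22 bases identical. Of all human names in RefSeq, hsa-miR-3529-5p shared the seed of hsa-miR-379-5p and was not listed in any table, and no other name shared a seed with a member.

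The mature sequences were matched to GRCh37, the build to which the authors mapped, and all lay on the plus strand of chromosome 14. The first was hsa-miR-493-5p at chr14:101335412-101335433, in an intron of the non-coding host gene MIR493HG. hsa-miR-127-5p followed at chr14:101349338-101349359, in an exon of MIR493HG and antisense to an exon of RTL1, a gene derived from a retrotransposon. hsa-miR-379-5p at chr14:101488408-101488428 and hsa-miR-411-5p at chr14:101489677-101489697 were neighbours in an intron of MEG8. hsa-miR-382-5p at chr14:101520653-101520674 overlapped an exon of MEG9, and its gene was annotated on the opposite strand in the lifted annotation. hsa-miR-409-5p at chr14:101531651-101531673 and hsa-miR-369-5p at chr14:101531943-101531964 both lay in an intron of MEG9, with the gene MIR412 between theirs. The member genes spanned 196.6 kb in all.

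The tables hold no value of a single library. For each name they give the authors' mean of normalised counts over the 3 libraries of a line and the 3 of its control, so that a level belongs to the pair and not to the line or the control alone. The 7 tables were normalised separately and 3 of them share the HCT116* libraries, and therefore levels were set side by side as a description with no test and no replicate error. A level is given here in ppm, parts per 1000000 of the sum of a table's means. The tables list 273 to 434 names with summed means of 5556870 to 11221232, and the depth of single libraries is unknown. A name that a table does not list was not taken as 0. The table of HCT116* 3/3 c11 lists nothing below a mean of 11.9, whereas the lowest listed means in the other 6 tables were 1.10 to 4.67. Its 279 names equal the number that the study counts for this line at a mean of at least 10. Names with lower means are thus missing from it, and its lists are not like those of the other tables.

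The members were high in all 3 RPE1 tables and low or not listed in all 4 HCT116 tables. Each RPE1 table lists all 7 members. Among the HCT116 tables, that of HCT116* 8/3 c7 lists 6, that of HCT116 5/4 lists 5, and those of HCT116 18/3 c2 and HCT116* 3/3 c11 list 4 each. hsa-miR-379-5p, hsa-miR-411-5p, hsa-miR-382-5p and hsa-miR-369-5p were listed everywhere.

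hsa-miR-379-5p, the first miRNA gene of the long downstream run of the cluster, was the most abundant member in every table. Its level was 4.77 ppm in the table of HCT116 18/3 c2, 4.84 ppm in that of HCT116 5/4, 7.57 ppm in that of HCT116* 3/3 c11 and 7.49 ppm in that of HCT116* 8/3 c7. It was 1175 ppm in the table of RPE1 5/3 12/3, 1237 ppm in that of RPE1* 21/3 and 1503 ppm in that of RPE1* 7/3. The levels of the cell types did not overlap, and the lowest RPE1 level was 155 times the highest HCT116 level. As mean normalised counts these are 26.9 to 67.7 in HCT116 and 9965 to 16866 in RPE1. By rank within its table hsa-miR-379-5p was between place 20 and place 23 in RPE1 and between place 172 and place 193 in HCT116.

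hsa-miR-411-5p, its neighbour and closest relative in sequence, had levels of 3.45, 4.83, 5.01 and 5.996 ppm in the tables of HCT116 18/3 c2, HCT116 5/4, HCT116* 3/3 c11 and HCT116* 8/3 c7. In the table of RPE1 5/3 12/3, that of RPE1* 21/3 and that of RPE1* 7/3 the levels were 1117, 1147 and 1032 ppm. The lowest RPE1 level was 172 times the highest HCT116 level. It was the steadiest member across the RPE1 tables, whose highest and lowest levels differed 1.11-fold. The median over the 262 names that all 3 RPE1 tables list was 2.05-fold, but it covers names of all levels. Whether hsa-miR-411-5p was steady for its level was not tested.

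hsa-miR-369-5p was listed at 0.860, 1.05, 1.40 and 1.43 ppm in the tables of HCT116 18/3 c2, HCT116 5/4, HCT116* 3/3 c11 and HCT116* 8/3 c7. Its RPE1 levels were 114 ppm in RPE1 5/3 12/3, 146 ppm in RPE1* 21/3 and 154 ppm in RPE1* 7/3, all at least 79.8 times the highest HCT116 level. hsa-miR-382-5p was listed at 1.23, 0.647, 2.15 and 1.75 ppm in the same 4 HCT116 tables. Its RPE1 levels were 98.8, 92.4 and 124 ppm, and the lowest of them was 42.9 times the highest HCT116 level. Among the members hsa-miR-382-5p varied the most between the HCT116 tables, 3.33-fold from the table of HCT116 5/4 to that of HCT116* 3/3 c11. These HCT116 means were low in number of reads, at 5.83 to 12.5 normalised counts for hsa-miR-369-5p and 3.60 to 19.3 for hsa-miR-382-5p.

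hsa-miR-493-5p, the most upstream member, was one of the 3 abundant members in RPE1, at 668 ppm in RPE1 5/3 12/3, 1166 ppm in RPE1* 21/3 and 1122 ppm in RPE1* 7/3. In HCT116 it was listed at 1.26 ppm in the table of HCT116 5/4 and at 0.575 ppm in that of HCT116* 8/3 c7. The other 2 HCT116 tables do not list it. Its means in the 2 that do, 6.99 and 4.51 normalised counts, are below the lowest mean that the table of HCT116* 3/3 c11 lists, 11.9. The lowest RPE1 level was 531 times the higher of the 2 HCT116 levels. It varied the most of the members across the RPE1 tables, 1.75-fold, with RPE1 5/3 12/3 lowest.

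hsa-miR-409-5p was listed at 66.3, 85.1 and 50.5 ppm in the table of RPE1 5/3 12/3, that of RPE1* 21/3 and that of RPE1* 7/3. Of the HCT116 tables, that of HCT116* 8/3 c7 lists it, at 0.501 ppm and a mean of 3.93 normalised counts. hsa-miR-127-5p, whose gene lies antisense to RTL1, was not listed in any HCT116 table. Its RPE1 levels were 131, 134 and 100.01 ppm, with means of 1078 to 1192 normalised counts. No fold is given for it, because an unlisted name has no value.

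**Figure D1:**
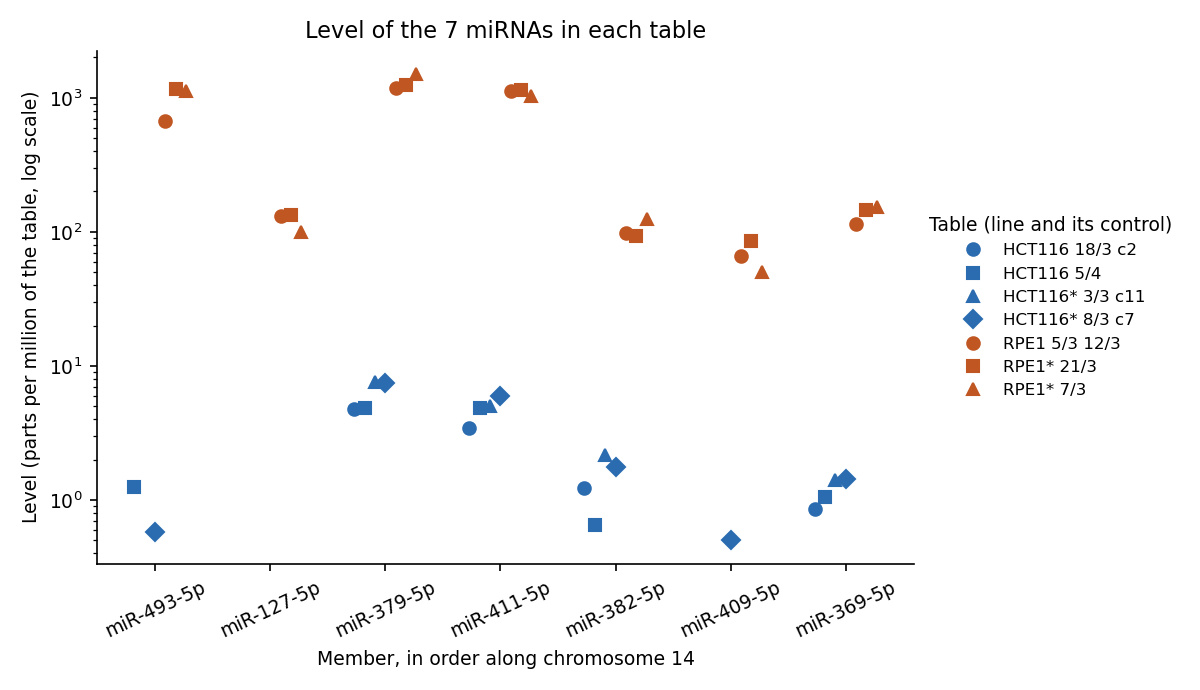
Level of each member in the 7 tables, in ppm of a table's summed means on a log axis; each point is 1 table, which pools a line and its control, HCT116 tables in blue and RPE1 tables in orange, with no point where a table does not list the name. All RPE1 points lie at or above 50.5 ppm and all HCT116 points at or below 7.57 ppm.

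As the ratio of the median level over the RPE1 tables to the median over the HCT116 tables that list the name, hsa-miR-493-5p was 1224-fold higher in RPE1, hsa-miR-411-5p 227-fold, hsa-miR-379-5p 201-fold, hsa-miR-409-5p 132-fold, hsa-miR-369-5p 119-fold and hsa-miR-382-5p 66.1-fold. The value for hsa-miR-493-5p rests on 2 HCT116 tables, with means of 6.99 and 4.51 normalised counts, and that for hsa-miR-409-5p on 1. Without the table of HCT116 5/4, the log2 ratio of hsa-miR-493-5p moved from 10.26 to 10.93. The median of the 6 members was 163-fold, whereas the median over all 353 names listed in both cell types was 0.483-fold.

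Most names were thus lower in RPE1 on the ppm scale, and the choice of scale moves all ratios together. Dividing each table by its median ratio over the 205 names listed in all 7 tables shifted the median log2 ratio of all names by 1.03. On that scale the members were further apart between the cell types, at 405-fold for hsa-miR-379-5p, 481-fold for hsa-miR-411-5p and 130-fold for hsa-miR-382-5p. Relative to the median name on the ppm scale, hsa-miR-379-5p was 415-fold higher in RPE1 and hsa-miR-382-5p was 137-fold higher. Every member with a ratio was higher in RPE1 on both scales.

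Of the 353 names, 10 were over 100-fold higher in RPE1, and 7 of these 10 were names of the cluster. By size of the ratio, hsa-miR-493-5p was in place 2, hsa-miR-411-5p in place 4, hsa-miR-379-5p in place 5, hsa-miR-409-5p in place 8, hsa-miR-369-5p in place 9 and hsa-miR-382-5p in place 12. The largest ratio belonged to hsa-miR-155-5p, which lies outside the cluster, at 1469-fold.

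A name was compared for overlap where at least 2 tables of each cell type list it. All 5 members that could be compared had every RPE1 level above every HCT116 level, and so had 8 of 8 cluster names. Over all 264 names compared, this held for 32 (12.1%). The opposite order, every RPE1 level below every HCT116 level, was found for 0 of the 5 members and for 121 of all names (45.8%). On the median ratio scale the same 5 members and 8 cluster names were above, against 61 of all names (23.1%), and 63 of all names were below (23.9%). The split of all names therefore moved with the scale, and the members' did not. The members' count could hardly move, because their smallest gap was 42.9-fold (hsa-miR-382-5p) and the scales differed by 1.03 in median log2 ratio.

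**Figure D2:**
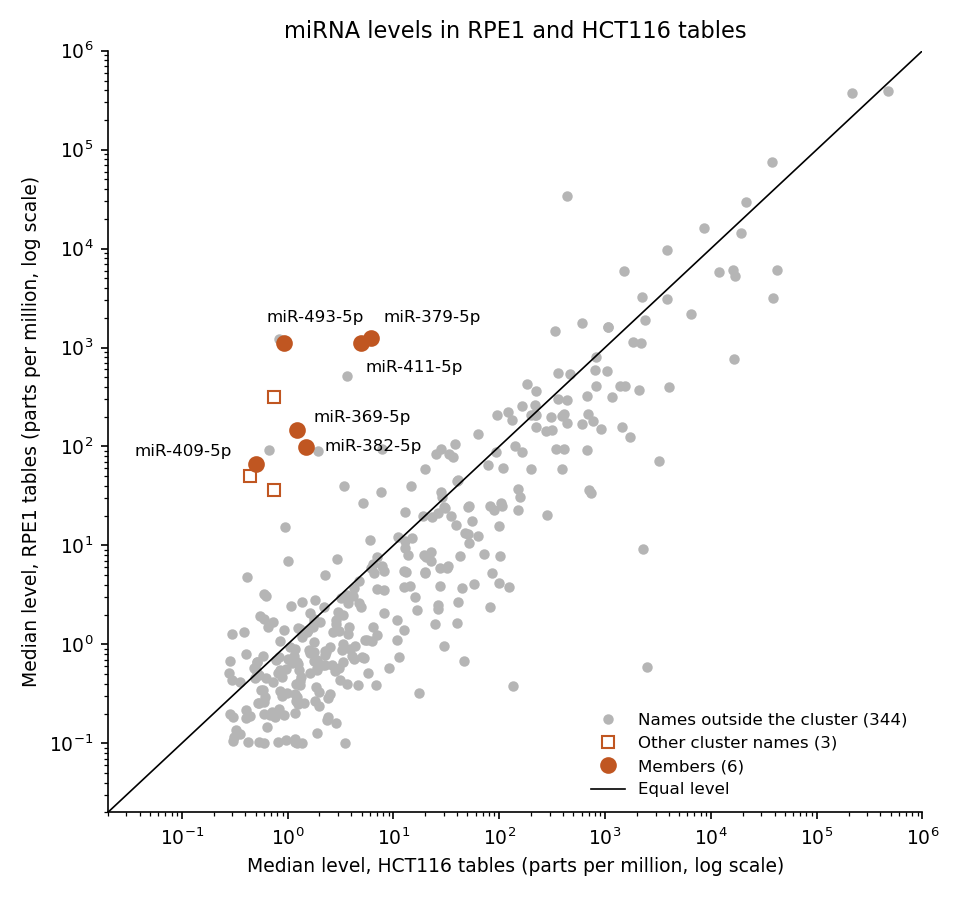
Median level over the RPE1 tables against median level over the HCT116 tables for the 353 names listed in both cell types, both in ppm on log axes; filled orange points are 6 members, open squares 3 other cluster names, grey points all other names, and the line marks equal levels. The members lie 66.1-fold to 1224-fold above the line, away from most other names.

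Of the 22 other listed names of the cluster, 3 had a value in both cell types and were higher in RPE1, and 19 had no HCT116 value and thus no ratio. Between DLK1 and DIO3 the annotation holds 53 miRNA genes, of which 50 have a RefSeq entry with 88 mature names in all. The tables list 29 of these names, 26 from the 5p arm, 1 from the 3p arm and 2 without an arm in the name. The 3p partners of the members were not listed. This is a property of the tables as a whole, in which 12 of the 509 names end in 3p and 333 in 5p, so that the 2 arms of a hairpin could not be compared for the members.

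The HCT116 tables list 7 cluster names (HCT116 18/3 c2), 6 (HCT116 5/4), 4 (HCT116* 3/3 c11) and 9 (HCT116* 8/3 c7), and the RPE1 tables list 24, 24 and 29. Of the 29 cluster names, 20 were listed by at least 1 RPE1 table and by no HCT116 table, of which hsa-miR-127-5p was the 1 member. Over all 509 names this held for 58 (11.4%). With all 3 RPE1 tables required, it held for 15 cluster names, hsa-miR-127-5p among them, and for 27 of all names (5.3%). Listing limits enter the count of 20, which was 15 without the table of RPE1* 7/3. The lowest mean listed in that table was 1.10, against at least 2.14 in the HCT116 tables. Conversely, 98 of all names (19.3%) were listed by an HCT116 table and by no RPE1 table, and 0 of these were cluster names.

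Summed over the cluster, the listed names made up 11.6, 13.5, 16.1 and 19.99 ppm in the tables of HCT116 18/3 c2, HCT116 5/4, HCT116* 3/3 c11 and HCT116* 8/3 c7. In the table of RPE1 5/3 12/3, that of RPE1* 21/3 and that of RPE1* 7/3 the sums were 4018, 4629 and 5113 ppm, or 0.402, 0.463 and 0.511% of the table. Each sum runs over the names that the table lists, 4 to 9 in HCT116 and 24 to 29 in RPE1, so the 312-fold ratio of the medians sets different lists side by side. Over the 4 members listed in all 7 tables, the sums were 10.3 to 16.7 ppm in HCT116 and 2505 to 2813 ppm in RPE1, a 191-fold ratio of medians. With means of at least 50 required, the log2 ratio of the cluster sums moved from 8.29 to 9.26 and rested on 2 HCT116 tables. The 7 members contributed 83.9, 86.6 and 79.9% of the cluster sum in these RPE1 tables, and the 3 most abundant names contributed 71.5 to 76.7%.

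Of the other cluster names, the highest in RPE1 were hsa-miR-134, hsa-miR-136-5p, hsa-miR-654-5p, hsa-miR-299-3p and hsa-miR-485-5p. hsa-miR-134, known from neurons as a regulator of dendritic spine size, had levels of 319, 284 and 548 ppm in the table of RPE1 5/3 12/3, that of RPE1* 21/3 and that of RPE1* 7/3, which placed it between the 3 abundant members and hsa-miR-369-5p. In HCT116 it was listed in 3 tables at 0.377, 0.885 and 0.751 ppm, a 425-fold difference of medians. These HCT116 levels rest on low means of 3.00, 4.92 and 5.89 normalised counts. hsa-miR-654-5p was listed at 41.3, 50.9 and 113 ppm in RPE1 and in 2 HCT116 tables at 0.297 and 0.578 ppm. hsa-miR-485-5p was listed at 27.7, 36.4 and 93.1 ppm in RPE1 and in 2 HCT116 tables at 0.563 and 0.913 ppm. All 3 were highest in the table of RPE1* 7/3. That table pools its own set of RPE1* libraries, so line, control libraries and any sequencing batch cannot be told apart.

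hsa-miR-136-5p, which like hsa-miR-127-5p comes from a hairpin antisense to RTL1, was listed in RPE1 alone, at 87.2, 87.3 and 127 ppm. hsa-miR-299-3p was also listed in RPE1 alone, at 65.8, 39.8 and 41.5 ppm. It was the 1 listed 3p name of the cluster, and the 5p partner hsa-miR-299-5p was listed at 18.2, 24.0 and 19.0 ppm in the same tables. In each RPE1 table the 3p arm was thus above the 5p arm.

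Position along the cluster and level in RPE1 were set beside the listing in HCT116. Of the 7 listed names from MIR770 to MIR136, HCT116 tables list 1, hsa-miR-493-5p. Of the 22 listed names from MIR379 to MIR369, they list 8. The 9 names listed in HCT116 were all among the 12 most abundant cluster names in RPE1. The 3 of those 12 that no HCT116 table lists were hsa-miR-127-5p, hsa-miR-136-5p and hsa-miR-299-3p, in places 6, 8 and 11. By median level in RPE1, hsa-miR-127-5p was thus above hsa-miR-382-5p, at 131 against 98.8 ppm, but their ranges overlap. In the table of RPE1* 7/3 the order was the reverse, at 100.01 ppm for hsa-miR-127-5p against 124 ppm for hsa-miR-382-5p. hsa-miR-382-5p was listed in all 4 HCT116 tables and hsa-miR-127-5p in 0.

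**Figure D3:**
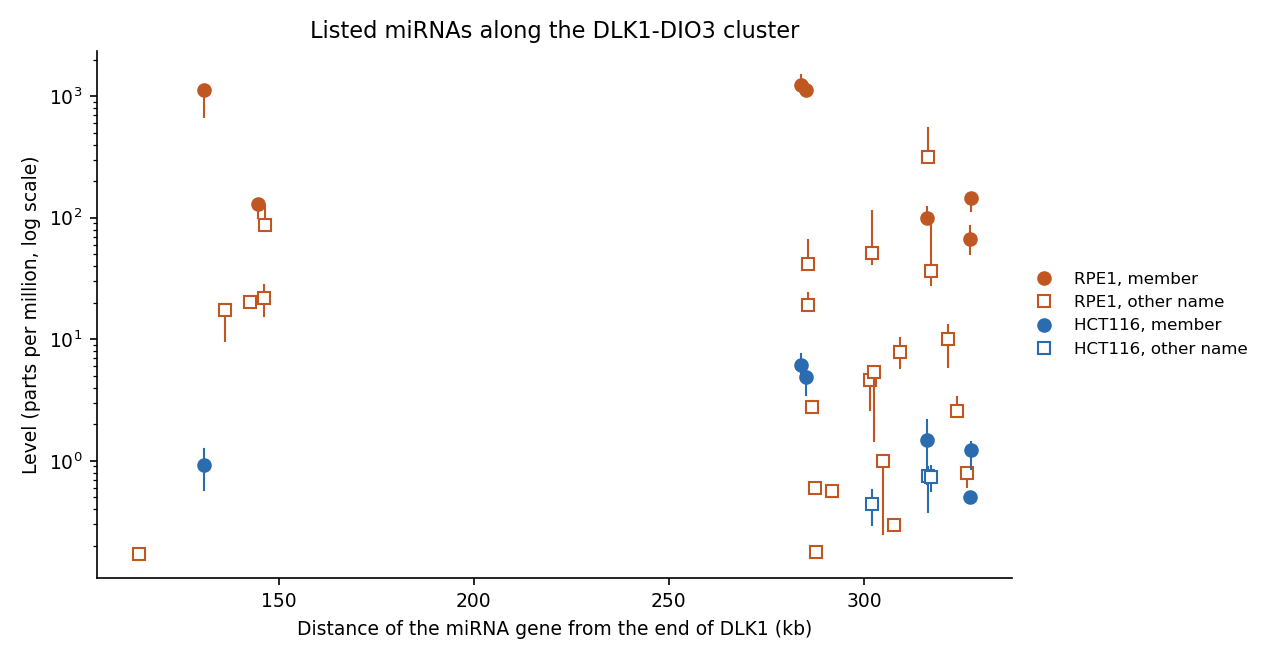
Levels of the 29 listed cluster names by distance of the miRNA gene from the end of DLK1 in kb; points are medians over the tables of a cell type that list the name, in ppm on a log axis, vertical lines run from the lowest to the highest table, and filled circles are members. Names from 2 stretches are seen, and the HCT116 levels (blue) lie below the RPE1 levels (orange) of the same names throughout.

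Within a table the normalisation cancels, so members were also expressed as a percentage of hsa-miR-379-5p in the same table. This asks whether the proportions of the members were alike in both cell types. The order began with hsa-miR-379-5p in all 7 tables. hsa-miR-411-5p was at 66.2 to 99.9% of it (median 76.2%) in HCT116 and at 68.7 to 95.0% (median 92.7%) in RPE1, ranges that overlap.

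For 3 members the percentages did not overlap between the HCT116 and RPE1 tables. Such percentages were not formed for other names, so no share over all names stands beside this count. hsa-miR-369-5p was at 18.0 to 21.7% of hsa-miR-379-5p in the 4 HCT116 tables (median 18.8%) and at 9.71 to 11.8% in the 3 RPE1 tables (median 10.3%). hsa-miR-382-5p was at 13.4 to 28.5% in HCT116 (median 24.6%) and at 7.47 to 8.41% in RPE1 (median 8.23%). Relative to hsa-miR-379-5p both were thus lower in RPE1, with no overlap. hsa-miR-493-5p went the other way, from 7.67 and 26.0% in the 2 HCT116 tables that list it to 56.9, 94.3 and 74.7% in the table of RPE1 5/3 12/3, that of RPE1* 21/3 and that of RPE1* 7/3.

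For the other 2 members such a difference was not seen or could not be formed. hsa-miR-409-5p was at 6.68% in the 1 HCT116 table that lists it, inside its RPE1 range of 3.36 to 6.88%. hsa-miR-127-5p was at 11.1, 10.8 and 6.65% in the table of RPE1 5/3 12/3, that of RPE1* 21/3 and that of RPE1* 7/3. The HCT116 percentages rest on means of 3.60 to 67.7 normalised counts, and 3 of the 4 HCT116 tables contain the same control libraries, so the spread between them is not that of separate cultures.

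**Figure D4:**
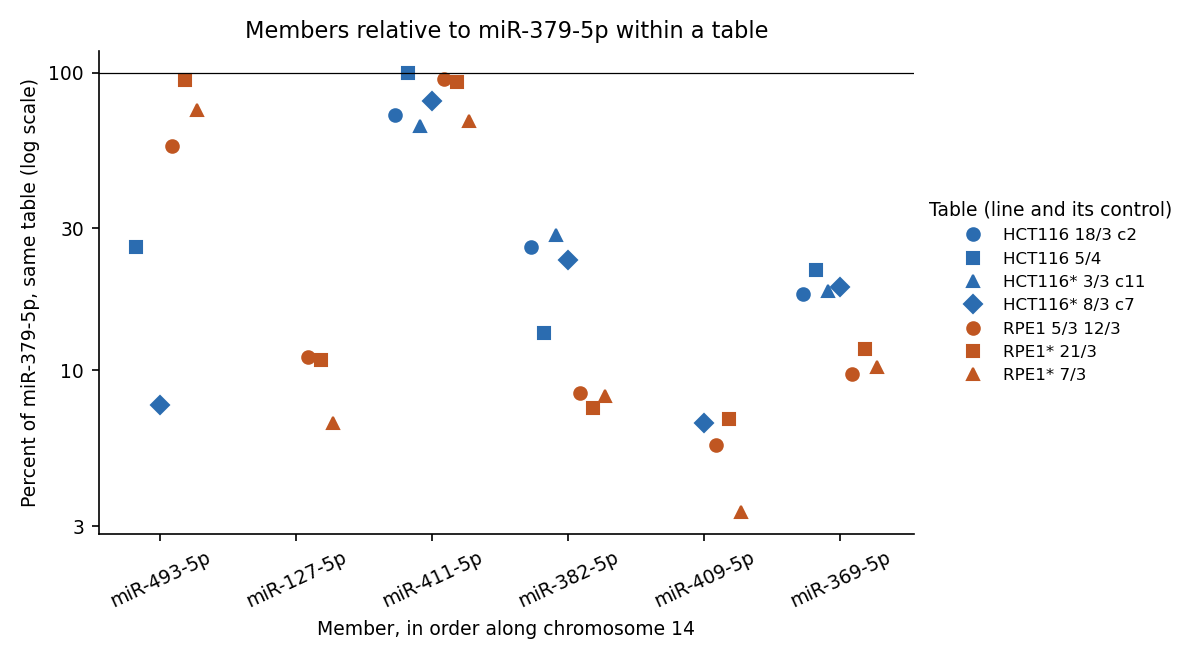
Level of 6 members as a percentage of hsa-miR-379-5p in the same table, on a log axis; each point is 1 table, HCT116 in blue and RPE1 in orange, and the line marks 100%. hsa-miR-382-5p and hsa-miR-369-5p lie lower and hsa-miR-493-5p lies higher in the RPE1 tables, whereas hsa-miR-411-5p overlaps.

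Among themselves the RPE1 tables differed 1.11-fold for hsa-miR-411-5p, 1.28-fold for hsa-miR-379-5p and 1.34-fold for hsa-miR-127-5p and hsa-miR-382-5p. The other members differed 1.35-fold (hsa-miR-369-5p), 1.69-fold (hsa-miR-409-5p) and 1.75-fold (hsa-miR-493-5p). The median over the 262 names listed in all 3 RPE1 tables was 2.05-fold, but it covers names of all levels. Other cluster names listed in all 3 ranged from 1.15-fold (hsa-miR-380-5p) to 3.98-fold (hsa-miR-1185-5p). Whether the members were steady for their level was not tested. The order after hsa-miR-379-5p changed between these tables. hsa-miR-411-5p was above hsa-miR-493-5p in the table of RPE1 5/3 12/3 and below it in those of RPE1* 21/3 and RPE1* 7/3. By median, neighbours in the order whose ranges overlap across the RPE1 tables were hsa-miR-493-5p with hsa-miR-411-5p, hsa-miR-369-5p with hsa-miR-127-5p, and hsa-miR-127-5p with hsa-miR-382-5p. The range of hsa-miR-379-5p lay above those of all other members, with 1175 ppm against a next highest value of 1166 ppm. hsa-miR-409-5p lay below all others. Across the HCT116 tables the members listed everywhere differed 1.59-fold (hsa-miR-379-5p), 1.66-fold (hsa-miR-369-5p), 1.74-fold (hsa-miR-411-5p) and 3.33-fold (hsa-miR-382-5p), against a median of 1.98-fold over 271 names.

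The identity of the cells was checked on marker miRNAs. Of 8 epithelial and colon markers, hsa-miR-200b-5p, hsa-miR-200c-5p and hsa-miR-141-5p were listed in all 4 HCT116 tables and in no RPE1 table, and hsa-miR-200a-5p was at 1138 to 2544 ppm in HCT116 against 0.584 ppm in the 1 RPE1 table that lists it. The other colon markers did not separate the cell types in this way. hsa-miR-192-5p was at 281 to 586 ppm in HCT116 and 166 to 242 ppm in RPE1, hsa-miR-194-5p at 16.3 to 139 ppm and 3.93 to 24.5 ppm, hsa-miR-215 at 5.71 to 23.8 ppm and 4.64 to 7.97 ppm, and hsa-miR-429 was not listed in any table. The pigment epithelial marker hsa-miR-204-5p was at 3.302 to 4.50 ppm in HCT116 and 380 to 1450 ppm in RPE1, whereas hsa-miR-211-5p did not exceed 1.98 ppm anywhere. Of 5 mesenchymal markers, hsa-miR-214-5p was not listed, and hsa-miR-199b-5p was listed in HCT116 alone at 22.3 to 36.3 ppm. hsa-miR-199a-5p was at most 1.61 ppm in any table. hsa-miR-145-5p was at 144 to 265 ppm in HCT116 and 7.98 to 100.3 ppm in RPE1. hsa-miR-143-5p went the other way, at most 1.69 ppm in HCT116 and at most 12.6 ppm in RPE1. Its median was 6.85-fold higher in RPE1, with ranges that overlap. The 2 cell types differ in origin, transformation and many other ways that cannot be told apart here.

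The names outside the cluster whose log2 level followed the mean of the 4 members listed everywhere most closely over the 7 tables were found among 201 candidates. They were hsa-miR-204-5p (Pearson r = 0.991), hsa-let-7i-5p (r = 0.976), hsa-miR-26a-5p (r = 0.951), hsa-miR-181b-5p (r = 0.943) and hsa-miR-503-5p (r = 0.943). The points form 2 separate sets, the cell types, and 3 of them share control libraries, so r mainly orders names by how cleanly they separate RPE1 from HCT116. The sizes differed widely, from 142-fold for hsa-miR-204-5p to 1.999-fold for hsa-let-7i-5p and 1.87-fold for hsa-miR-26a-5p.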

How the data were processed

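Small RNA libraries of 36 cultures were made by the authors from total RNA (miRNeasy, TruSeq) and sequenced as single reads. Reads were trimmed, adapters removed with cutadapt, and miRNAs counted by the authors with mirdeep2 on hg19 and miRBase, running the 3 libraries of a line with the 3 of its control. DESeq2 (version not given in the sources used here) supplied size factors. The deposited mean is a signal, the authors' average of normalised counts over 6 libraries. Each deposited table also holds 5 columns of the authors' own comparison, a log2 fold change of line over control, its standard error, a test statistic, a p-value and an adjusted p-value, which were not used. Line-against-control changes of the members are therefore not analysed here.

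Levels are means divided by the table's sum, times 1000000. Ratios are of medians over tables, and no test was made. The calculation was tried on simulated data on the median ratio scale, with every name listed in every table. The ppm scale and unlisted names were not tried in this way. Genes came from GENCODE 44 lifted to GRCh37, and sequences from RefSeq. Named miRNAs are the 7 members, the 5 other cluster names highest in RPE1, those listed by at least 2 HCT116 tables, the 5 most alike, 4 other imprinted miRNAs and the markers. hsa-miR-155-5p, hsa-miR-3529-5p, hsa-miR-299-5p and hsa-miR-376b-5p were added after their values were seen. Members and lists were chosen with earlier results of these data known. Alternatives were other scales, limits on the mean of 10 or 50, leaving out each table, other summaries, a value for unlisted names another reference name and, added later, the cluster sum over names in all 7 tables. Python 3.11.15, pandas 2.3.3 and numpy 2.4.6 were used.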

Additional observations from a re-analysis of the deposited data

How the results depend on the processing

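All 6 member ratios kept their direction under every alternative that gave a value. They could hardly do otherwise, because the smallest gap between the cell types was 42.9-fold (hsa-miR-382-5p). The ppm and median ratio scales differed by 1.03 in median log2 ratio. As log2 ratios of RPE1 over HCT116, the values on the median ratio scale were 11.40 for hsa-miR-493-5p, 8.66 for hsa-miR-379-5p, 8.91 for hsa-miR-411-5p, 7.02 for hsa-miR-382-5p, 8.08 for hsa-miR-409-5p, 7.95 for hsa-miR-369-5p and 9.33 for the cluster sum. Without the 10 most abundant names in each table's sum they were 11.03, 8.37, 8.58, 6.78, 7.81, 7.59 and 8.97 in that order. With the authors' means not divided by the sum, hsa-miR-411-5p was at 8.14. With each table left out in turn, hsa-miR-493-5p ranged from 9.80 to 10.93, the highest without the table of HCT116 5/4, hsa-miR-379-5p from 7.37 to 8.00, hsa-miR-411-5p from 7.77 to 7.85, hsa-miR-382-5p from 5.82 to 6.32, hsa-miR-409-5p from 6.87 to 7.24 and hsa-miR-369-5p from 6.70 to 7.12. The count of members without overlap ranged from 4 to 5. That of cluster names listed in RPE1 alone ranged from 15 to 21, the lowest without the table of RPE1* 7/3. Where means of at least 50 were required, 1 of 1 member could be compared and lay above, and the log2 ratio of the cluster sum was 9.26 over the 2 HCT116 tables that keep a cluster name. With the sum limited to the 4 cluster names listed in all 7 tables, an alternative chosen after seeing the data, it was 7.57. Among the members, the limit of 50 on the mean left a ratio for hsa-miR-379-5p alone, and a limit of 10 left none for hsa-miR-493-5p or hsa-miR-409-5p. Apart from leaving out tables, 60 values were recomputed under an alternative, of which 42 stayed within the spread between tables or within 1.5 times the count, and the other 18 are given above. No paired analysis was possible because the tables hold no values of single libraries. The means hide the spread between libraries, and low HCT116 means carry a counting error that the tables do not give.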

Other observations

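Of 4 other imprinted miRNAs, only hsa-miR-335-5p had values in both cell types, so a direction could be read for it alone. The others were listed in a single cell type each, hsa-miR-675-5p and hsa-miR-296-5p at low levels. hsa-miR-335-5p, from the imprinted MEST locus, was at 1.64, 6.51, 1.73 and 2.15 ppm in the tables of HCT116 18/3 c2, HCT116 5/4, HCT116* 3/3 c11 and HCT116* 8/3 c7, and at 17.1 to 151 ppm in RPE1, a 46.5-fold difference of medians. hsa-miR-483-5p, from an intron of IGF2, was listed in all 4 HCT116 tables at 4.22 to 6.12 ppm and in no RPE1 table. hsa-miR-675-5p, processed from the imprinted RNA H19, was listed in 3 HCT116 tables at 0.735 to 0.984 ppm and in no RPE1 table. hsa-miR-296-5p, from the GNAS region, was listed in the 3 RPE1 tables at 0.329 to 1.33 ppm and in no HCT116 table.

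hsa-miR-376b-5p was listed in all 3 RPE1 tables, with a median of 3.81 ppm, and in no HCT116 table. RefSeq places its gene between DLK1 and DIO3, but the annotation on GRCh37 does not name that gene, so it was not counted among the 29 cluster names.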
